A study of Mus musculus with 36 samples.

Results

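Germ cells of XX mouse gonads at 12.5 days post coitum (dpc) were compared with those of XX gonads at 11.5 dpc, on 2 and 3 microarrays, which are 5 of the 36 arrays of the series. The cells carried an Oct4 reporter in progeny of C57BL/6NJ on a mixed background. Fetuses came from time-mated females, gonads were pooled by sex, dissociated with trypsin, stained with DAPI and flow sorted, so an array stands for a pool and not for a single fetus. The same design was used for XY germ cells, with the same reporter and background. XX supporting cells, the somatic lineage that becomes granulosa cells, were marked by Sry-EGFP in progeny of CD-1 mice at both stages, so cell type, reporter and strain cannot be told apart in comparisons with them.

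The array labelled XX germ cells 12.5 dpc replicate 3 was left out because of its own values: its 6 germ cell markers had a median log2 level of 5.201, against 10.7 to 10.8 on the other 12.5 dpc arrays and 10.4 to 10.5 on the 11.5 dpc arrays. Its 6 supporting cell markers had a median of 10.5, close to the 10.1 to 10.8 of XX supporting cells at these stages. Its 6 stromal markers had a median of 10.3, far above the 6.42 to 7.10 of XX supporting cells. The 5 arrays used carried germ cell transcripts. Ddx4, an RNA helicase of germ cells, stood at 11.32 and 11.28 at 12.5 dpc, against 10.79, 10.77 and 10.72 at 11.5 dpc, and at 5.04 on the array left out. No label states that the replicates are separate litters or separate pools. A p-value here therefore rests on the spread among replicate arrays, pooled over 12 groups of the series and not taken from these 5 arrays alone. Part of that spread may be technical.

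Levels are log2 values as deposited, and a difference is 12.5 minus 11.5 dpc, so a difference of 1 is a doubling. Each difference comes with its standard error (SE) and a p-value adjusted over 19938 genes (adjusted p) from a limma fit to 35 arrays, with a threshold of 0.05. The table rows of each array fall into interleaved sets that sit on slightly different scales, with set medians 0.26 to 0.75 apart within each of these 5 arrays. Differences are therefore also given with the row sets aligned. Alignment brought the correlation of the 12.5 dpc arrays over all 35557 probe sets to 0.987, against 0.971 as deposited. As a guide to the level that stands for no transcript, 5 Y-linked genes read 4.46 to 6.41 on these 5 XX arrays.

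In the fetal ovary, germ cells stop mitotic division and enter meiosis in response to signals from the surrounding soma, among which retinoic acid and bone morphogenetic proteins (BMPs) are the best studied. STRA8, with its partner MEIOSIN, switches on genes for the meiotic chromosome axis, for synapsis and for recombination. As they enter meiosis the cells lose the pluripotency genes that primordial germ cells share with embryonic stem cells. Many germline genes carry promoters that are silenced by DNA methylation in somatic cells and lose that methylation as primordial germ cells are reprogrammed in the gonad.

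The promoters of 4 genes that carry the comparison are shown: Stra8, Sycp1 and Dmc1 were among the genes with the largest gains, and Tdgf1 had the largest loss. Each runs from 250 bases before to 50 bases after the gene start (RefSeq, GRCm38.p6), 5′ to 3′. Capitals mark matches on either strand to CACGTG (E-box), TCCCGC (E2F core), CNCCTCAG (STRA8 motif) or AGGTCA (retinoid core). The retinoid core is a single unit and was not searched for as a repeat, so a match is not a full response element.
Stra8, chr6:34920698-34920997, plus strand: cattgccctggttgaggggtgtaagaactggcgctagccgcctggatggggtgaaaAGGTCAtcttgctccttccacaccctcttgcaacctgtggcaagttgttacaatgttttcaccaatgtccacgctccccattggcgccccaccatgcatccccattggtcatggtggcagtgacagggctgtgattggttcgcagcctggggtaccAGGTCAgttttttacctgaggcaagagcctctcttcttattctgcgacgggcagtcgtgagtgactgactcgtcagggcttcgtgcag
Sycp1, chr3:102936051-102936350, minus strand: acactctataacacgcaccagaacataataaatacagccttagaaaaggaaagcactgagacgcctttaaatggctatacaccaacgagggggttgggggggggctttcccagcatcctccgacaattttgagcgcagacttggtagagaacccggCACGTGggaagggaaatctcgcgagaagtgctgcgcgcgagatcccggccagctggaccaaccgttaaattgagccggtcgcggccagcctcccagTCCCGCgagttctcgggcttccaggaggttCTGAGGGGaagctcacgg
Dmc1, chr15:79605060-79605359, minus strand: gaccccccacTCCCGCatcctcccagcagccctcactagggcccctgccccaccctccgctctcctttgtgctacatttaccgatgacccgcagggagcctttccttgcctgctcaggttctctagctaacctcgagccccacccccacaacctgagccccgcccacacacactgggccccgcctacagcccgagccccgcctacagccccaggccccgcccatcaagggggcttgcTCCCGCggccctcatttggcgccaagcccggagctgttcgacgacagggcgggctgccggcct
Tdgf1, chr9:110946109-110946408, minus strand: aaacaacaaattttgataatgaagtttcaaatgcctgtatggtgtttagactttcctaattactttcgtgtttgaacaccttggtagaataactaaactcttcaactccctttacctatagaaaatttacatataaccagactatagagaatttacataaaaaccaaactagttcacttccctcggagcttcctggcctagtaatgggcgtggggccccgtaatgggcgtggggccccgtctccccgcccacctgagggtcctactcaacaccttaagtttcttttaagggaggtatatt
The Stra8 window held 2 retinoid cores, which lay apart, at -194 and -38 from the gene start. The Sycp1 window held 1 E-box, 1 E2F core and 1 STRA8 motif, and the Dmc1 window 2 E2F cores. None of the 4 letter strings is in the Tdgf1 window. The Sycp1 window held 21 CpG dinucleotides, that of Dmc1 18, that of Stra8 10 and that of Tdgf1 7.

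Between the stages, 229 of 19938 genes passed the test (1.15%), 189 of them higher at 12.5 dpc (0.948%) and 40 lower (0.201%). All 229 had 12.5 dpc values that did not overlap the 11.5 dpc values, which held for 24.6% of all genes. The gains reached 2.31 and the losses -2.42, and 123 higher and 29 lower genes differed by at least 1. The median of all genes was 0.06, and 2303 genes (11.6%) had an unadjusted p under 0.05. With the row sets aligned, 425 genes passed (2.13%), 235 higher (1.18%) and 190 lower (0.953%), around a median of -0.02. Of the 229 genes, 144 passed in the same direction with the row sets aligned, which is 62.9% of the deposited calls and 33.9% of the aligned ones, and 0 changed direction. The excess of gains depended on the scaling: 82.5% of calls were gains as deposited and 55.3% with the row sets aligned, 55.2% with each array centred on its median and 64.4% after quantile normalisation.

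How many genes passed also depended on single arrays. Without 12.5 dpc replicate 2 the count was 53, with the lone 12.5 dpc array assumed to vary like the other groups, and without 11.5 dpc replicate 3 it was 126. A group of 24 genes passed in the full fit, without each of the 5 arrays in turn and with the row sets aligned. In it 23 genes were higher, among them Stra8, Sycp1, Dmc1, Meiob, Ccdc172, Fbxo47, Scml2, Cubn, Rnf130, Shtn1, Slc35f5 and Lonrf2, and 1 was lower, Tdgf1. A fit to the 5 arrays alone, with few residual degrees of freedom, called 1 gene, Rnf130, a ubiquitin ligase, while 1919 genes had an unadjusted p under 0.05 in it. With the array left out put back, 356 genes passed and 112 of the 229 kept their call and direction.

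Of 17 measured genes of meiotic initiation, 7 rose and 0 fell, with a median difference of 0.81 against 0.06 over all genes. With the row sets aligned 5 were higher and 0 lower, with a median of 0.50.

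Stra8, the retinoic acid responsive regulator that switches on the meiotic programme, had log2 levels of 8.05 and 6.87 at 12.5 dpc, against 5.21, 4.91 and 5.34 at 11.5 dpc. The 11.5 dpc values lay in the range of the Y-linked genes, and both 12.5 dpc values lay above it and above every 11.5 dpc value. The difference was 2.31 ± 0.24 (SE, adjusted p = 1.28e-08), 4.96-fold on these values although the 11.5 dpc level cannot be told from background, and 1.95 with the row sets aligned (adjusted p = 4.51e-10). No gene that passed had a larger fitted difference.

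Meioc, a cofactor that works with the RNA helicase YTHDC2 to let germ cells leave the mitotic cycle, had levels of 8.05 and 5.56 at 12.5 dpc, against 5.47, 4.83 and 4.65 at 11.5 dpc. Replicate 1 thus stood far above all other arrays while replicate 2 was only just above the highest 11.5 dpc value. The difference was 1.82 ± 0.33 (adjusted p = 0.000579) and the call was lost without replicate 1. Ythdc2 itself had a difference of 1.13 ± 0.36 that did not pass (adjusted p = 0.118).

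Zglp1, a GATA-like factor that acts downstream of BMP in the oogenic programme, had levels of 7.07 and 7.24 at 12.5 dpc, against 6.36, 6.07 and 6.58 at 11.5 dpc. Its difference of 0.81 ± 0.22 was just past the threshold (adjusted p = 0.0468), as it was with the row sets aligned (0.50, adjusted p = 0.0249). The call was lost without either 12.5 dpc array, and without 11.5 dpc replicate 1 or 2.

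Rec8, the meiotic cohesin subunit that holds sister chromatids together, had levels of 6.90 and 7.86 at 12.5 dpc, against 6.51, 6.44 and 6.31 at 11.5 dpc. Its difference of 0.96 ± 0.26 passed as deposited (adjusted p = 0.0469) and did not with the row sets aligned (0.65, adjusted p = 0.0672). Taf4b, a germ cell subunit of the general transcription factor TFIID, was at 9.27 and 9.79, against 8.56, 8.65 and 8.61 at 11.5 dpc, and also lost its call on alignment (0.41, adjusted p = 0.314). Both calls were lost without 12.5 dpc replicate 2 and without each of the 11.5 dpc arrays.

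The other members that rose were Mael, a piRNA pathway protein, by 1.25 ± 0.25, and Stk31, a germ cell kinase with a tudor domain, by 1.23 ± 0.25 (adjusted p = 0.00187 and 0.00349). Both kept their calls with the row sets aligned and lost them without 12.5 dpc replicate 2. Dazl, the RNA-binding protein that licenses germ cells for meiosis, had levels of 11.001 and 10.75 at 12.5 dpc, against 10.11, 10.22 and 10.06 at 11.5 dpc. These groups did not overlap, but the difference of 0.74 ± 0.30 did not pass (adjusted p = 0.262).

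**Figure D1:**
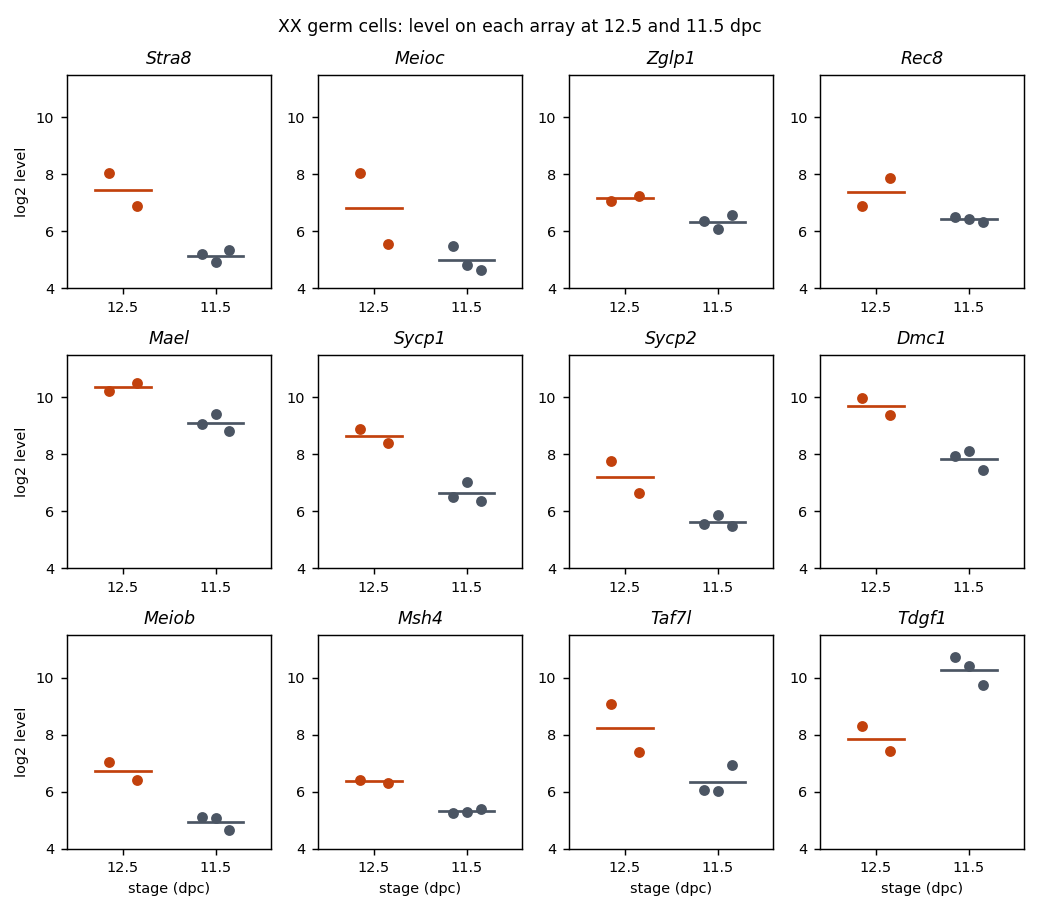
Log2 level on each array (points, with the group mean as a line) of 12 genes in XX germ cells at 12.5 dpc (left, 2 arrays) and 11.5 dpc (right, 3 arrays). In every panel the 2 groups do not overlap, and the 12.5 dpc arrays of Meioc lie furthest apart, at 8.05 and 5.56.

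Among genes of the meiotic chromosome axis and of synapsis, 4 of 22 measured members were higher and 0 lower, with a median difference of 0.50, and 5 were higher with the row sets aligned (median 0.42). Sycp1, which forms the transverse filaments that zip homologues together, had levels of 8.89 and 8.40 at 12.5 dpc, against 6.49, 7.04 and 6.36 at 11.5 dpc. Its difference of 2.02 ± 0.27 (adjusted p = 6.89e-06) was the same with the row sets aligned, 2.01. Sycp2, an axis protein, had levels of 7.77 and 6.66, against 5.55, 5.87 and 5.49 at 11.5 dpc.

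Both genes were higher on each 12.5 dpc array than on any 11.5 dpc array, and the difference of Sycp2 was 1.58 ± 0.26 (adjusted p = 0.000277), lost without 12.5 dpc replicate 1. Tex15, which is needed for repair of meiotic breaks and for silencing of transposons in male germ cells, rose by 1.04 ± 0.27 (adjusted p = 0.0346). Its call was lost in 4 of the 5 fits without 1 array, all but that without 11.5 dpc replicate 1. Rec8 is the fourth member.

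Sycp3, the axis protein that is the usual marker of meiotic chromosomes, was already at 9.56, 9.52 and 8.92 at 11.5 dpc and reached 10.25 and 10.53 at 12.5 dpc. The groups did not overlap, and the difference of 1.06 ± 0.30 missed the threshold (adjusted p = 0.0726). Hormad1, an axis protein that surveys synapsis, and Smc1b, a meiotic cohesin subunit, had differences of 0.86 each that passed only with the row sets aligned (0.88 and 1.02, adjusted p = 0.00921 and 0.0499).

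Of 25 measured genes of meiotic recombination, 4 were higher and 0 lower, with a median of 0.32, and 4 were higher with the row sets aligned (median 0.20). Dmc1, the recombinase that pairs a broken end with the homologue, had levels of 9.98 and 9.39 at 12.5 dpc, against 7.96, 8.13 and 7.44 at 11.5 dpc, a difference of 1.84 ± 0.32 (adjusted p = 0.000405). Meiob, a single-strand DNA-binding partner of the recombination machinery, had levels of 7.03 and 6.39, against 5.09, 5.09 and 4.65 at 11.5 dpc. Its difference was 1.76 ± 0.30 (adjusted p = 0.000373), and its 11.5 dpc values lay in the range of the Y-linked genes.

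Both kept their calls in all fits of the deposited values without 1 array, while with the row sets aligned Dmc1 lost its call without 12.5 dpc replicate 1. Tex11, an X-linked crossover factor, rose by 0.99 ± 0.25 and Msh4, which stabilises crossover intermediates, by 1.06 ± 0.22 (adjusted p = 0.0237 and 0.00349). The call of Tex11 was lost without 11.5 dpc replicate 1 or 3 or either 12.5 dpc array, and that of Msh4 without either 12.5 dpc array and with the row sets aligned (0.46, adjusted p = 0.187). Spo11, which makes the meiotic breaks, had levels of 6.55 and 6.51, against 6.67, 6.18 and 5.55 at 11.5 dpc, and its groups overlapped. Prdm9, which marks the sites of breaks, was at 7.57 and 6.48, against 6.32, 6.29 and 6.29 at 11.5 dpc, with a difference of 0.73 ± 0.27 that did not pass (adjusted p = 0.216).

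The 12.5 dpc arrays differed from each other in these genes. With the row sets aligned, replicate 1 lay above replicate 2 in 43 of the 63 measured genes of the 3 meiosis lists and in 11 of the 14 that passed, with medians of 0.10 and 0.23. Over all genes it lay above in 9521 (47.8%), with a median of -0.01. The gap was widest for Meioc (1.81) and Sycp2 (1.20) and was 0.68 for Stra8, while for Tex15 replicate 2 was higher (-0.48).

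**Figure D2:**
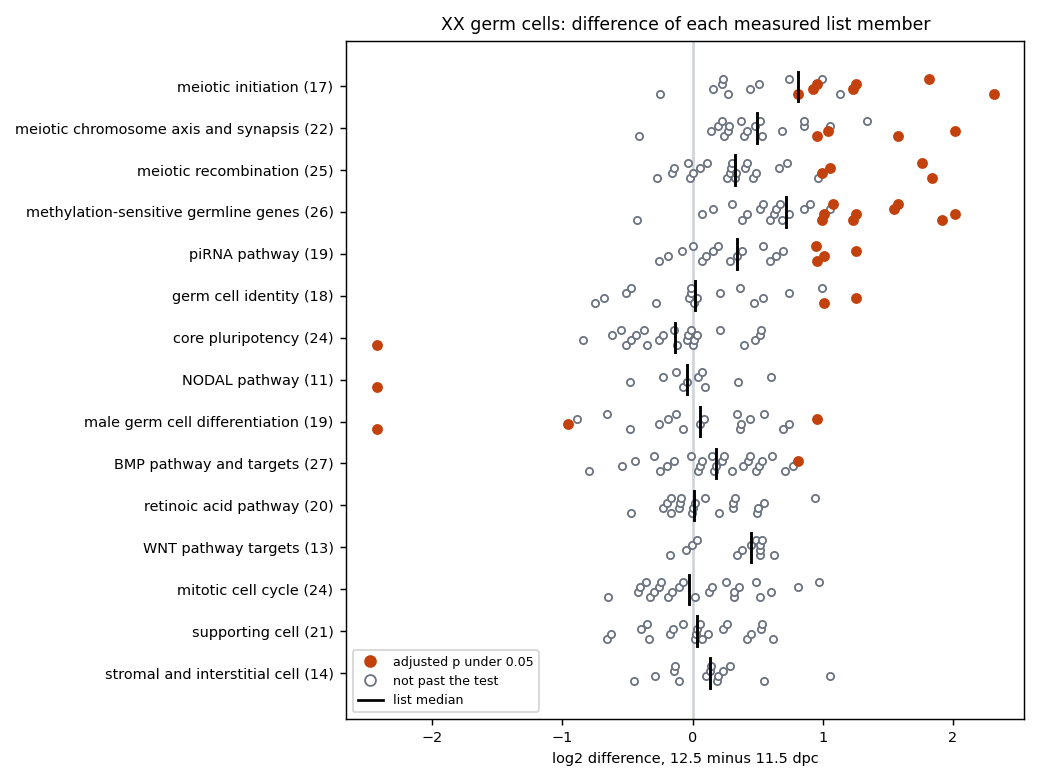
Log2 difference (12.5 minus 11.5 dpc) of every measured member of 15 gene lists in XX germ cells, with the number measured in brackets, the list median as a bar and members past adjusted p 0.05 filled. Members past the test lie to the right of 0 in the 3 meiosis lists, the methylation-sensitive and the piRNA lists, and Tdgf1 lies at -2.42 in the 3 lists that hold it.

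The list of germline genes known to be silenced by promoter methylation held 9 higher and 0 lower genes of 26 measured, with a median of 0.72, and 12 higher and 1 lower with the row sets aligned (median 0.71). It shares Mael, Stk31, Sycp1, Sycp2 and Tex11 with the meiosis lists. Taf7l, an X-linked germ cell paralogue of a TFIID subunit, had levels of 9.08 and 7.40 at 12.5 dpc, against 6.04, 6.01 and 6.92 at 11.5 dpc, a difference of 1.92 ± 0.33 (adjusted p = 0.000396) that was lost without 12.5 dpc replicate 1.

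Tuba3a, an alpha-tubulin of germ cells, had levels of 10.71 and 11.35, against 9.78, 9.32 and 9.37 at 11.5 dpc, and rose by 1.54 ± 0.25 (adjusted p = 0.00019). Brdt, a bromodomain protein of the germline, rose by 1.08 ± 0.22 (adjusted p = 0.00342) and Tdrd1, a tudor protein of the piRNA pathway, by 1.01 ± 0.25 (adjusted p = 0.0245). The 12.5 dpc values lay above the 11.5 dpc values for all 3 genes. Tuba3a and Brdt lost their calls without 12.5 dpc replicate 2, and Tdrd1 without 12.5 dpc replicate 1 and without 11.5 dpc replicate 1 or 2. Tuba3a has a close paralogue, Tuba3b, whose difference was 0.63 and did not pass, and probes may not separate them. The lower gene on alignment was Rpl10l, a germline copy of a ribosomal protein gene (-0.77, adjusted p = 0.0462).

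In the piRNA pathway, which silences transposons, 4 of 19 measured genes were higher and 0 lower (median 0.34), and 3 were higher with the row sets aligned (median 0.28). Beside Mael and Tdrd1 these were the tudor proteins Tdrd7, higher by 0.95 ± 0.24 (adjusted p = 0.0244), and Tdrd9, higher by 0.96 ± 0.23 (adjusted p = 0.0177) but not with the row sets aligned (0.51, adjusted p = 0.14). Tdrd9 had levels of 7.12 and 7.54, against 6.34, 6.31 and 6.47 at 11.5 dpc. Piwil2, the PIWI protein of fetal germ cells, had levels of 8.07 and 8.05, against 8.77, 7.64 and 7.54 at 11.5 dpc, which overlap. The call of Tdrd7 was lost in every fit without 1 array but that without 11.5 dpc replicate 1, and that of Tdrd9 without 12.5 dpc replicate 2 and without 11.5 dpc replicate 1 or 2.

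Of 24 measured pluripotency genes 7 had an unadjusted p under 0.05, against 11.6% of all genes. Of the 24, 1 passed, lower at 12.5 dpc, with a list median of -0.13, and with the row sets aligned 3 were lower (median -0.30). The gene that fell was Tdgf1, the NODAL co-receptor Cripto, which had levels of 8.30 and 7.42 at 12.5 dpc, against 10.70, 10.40 and 9.74 at 11.5 dpc. The difference was -2.42 ± 0.28 (adjusted p = 2.09e-07), a 5.36-fold loss, and -2.54 with the row sets aligned (adjusted p = 3.17e-07).

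Every 12.5 dpc value of Tdgf1 lay at least 1 unit below every 11.5 dpc value, and the call held without each array in turn. Pou5f1, the gene of the reporter, had levels of 10.66 and 10.72, against 11.01, 10.90 and 11.58 at 11.5 dpc, a difference of -0.47 ± 0.28 (adjusted p = 0.549). Nanog, a core pluripotency factor, had levels of 9.66 and 9.84, against 9.96, 9.86 and 9.86 at 11.5 dpc, with a difference of -0.15 ± 0.27 (adjusted p = 0.892). Neither passed, although in both genes the 12.5 dpc values lay below those at 11.5 dpc.

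Sox2, the partner of POU5F1, had levels of 9.66 and 9.55, against 10.06, 9.84 and 9.96 at 11.5 dpc. Its difference was -0.35 as deposited (adjusted p = 0.63) and passed with the row sets aligned (-0.73, adjusted p = 0.00527), as did that of Tcl1, an activator of AKT signalling (-0.59, adjusted p = 0.0403). At 13.5 dpc, XX germ cells had mean levels of 6.26 for Tdgf1, 7.65 for Nanog, 8.51 for Sox2 and 9.96 for Pou5f1, each below the 12.5 dpc values.

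In the NODAL pathway, which promotes the male fate of germ cells, 1 of 11 measured genes passed, again Tdgf1, and the list median was -0.04. Nodal itself was at 6.96 and 7.07, against 7.14, 7.21 and 7.08 at 11.5 dpc, and its feedback inhibitor Lefty1 at 5.52 and 5.405, against 6.22, 5.54 and 6.06 at 11.5 dpc. Neither difference passed (adjusted p = 0.883 and 0.485).

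Of 19 measured genes of male germ cell differentiation, 1 was higher, Tdrd9, and 2 were lower, Tdgf1 and Morc1, a transposon silencing ATPase (-0.96 ± 0.25, adjusted p = 0.0441). In this list 7 genes had an unadjusted p under 0.05, against 11.6% of all genes. The Morc1 call was lost without either 12.5 dpc array and without 11.5 dpc replicate 1 or 3. Nanos2, the RNA-binding protein that fixes the male fate, had levels of 5.87 and 5.70, against 5.76, 6.38 and 5.77 at 11.5 dpc, in the range of the Y-linked genes at both stages. Nanos3, its relative in primordial germ cells, was at 8.91 and 8.73, against 9.52, 9.30 and 9.69 at 11.5 dpc, with a difference of -0.68 ± 0.24 that did not pass (adjusted p = 0.176).

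The signalling lists showed few calls. Of 20 measured genes of the retinoic acid pathway 0 passed and 4 had an unadjusted p under 0.05, as 11.6% of all genes did, with a median of 0.01. Crabp2, a carrier of retinoic acid, had levels of 9.81 and 10.19 at 12.5 dpc, against 9.02, 9.005 and 9.15 at 11.5 dpc, and its difference of 0.94 ± 0.30 did not pass (adjusted p = 0.115). The receptor gene Rarb, itself a retinoic acid target, was at 6.45 and 6.55, against 6.50, 6.29 and 6.70 at 11.5 dpc, a difference of 0.00 ± 0.24. Cyp26b1, the enzyme that degrades retinoic acid, had a difference of 0.20 (adjusted p = 0.819).

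Of 27 measured genes of the BMP pathway and its targets, Zglp1 was the 1 that passed, and the median was 0.18 (0.03 with the row sets aligned, where Hey1, a transcriptional repressor, was lower by -0.76, adjusted p = 0.00796). In this list 10 of the 27 genes had an unadjusted p under 0.05, against 11.6% of all genes. The BMP target Id1 was at 9.12 and 8.70, against 8.67, 8.50 and 8.23 at 11.5 dpc, a difference of 0.44 ± 0.26 that fell to 0.08 on alignment. Id2 had levels of 8.54 and 8.39, against 8.07, 8.96 and 8.16 at 11.5 dpc, and Id3 of 9.05 and 8.67, against 9.01, 9.41 and 9.04. None of the 3 Id genes, which encode inhibitors of basic helix-loop-helix factors, passed (adjusted p = 0.544, 0.967 and 0.738).

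Of 13 WNT targets 0 passed (3 at an unadjusted p under 0.05), with a median of 0.45 that was 0.21 with the row sets aligned. Axin2, a feedback inhibitor of WNT signalling, was at 8.77 and 8.76, against 8.29, 8.35 and 8.31 at 11.5 dpc, and its difference of 0.45 did not pass (adjusted p = 0.446).

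Of 24 mitotic genes and 25 replication genes 0 passed in either list (5 and 2 at an unadjusted p under 0.05, which 11.6% of all genes reached), with medians of -0.03 and 0.03. Mki67, the Ki-67 proliferation marker, was at 10.71 and 10.73, against 10.06, 10.25 and 10.04 at 11.5 dpc, but its difference of 0.60 became -0.02 on alignment. Rb1, the retinoblastoma protein that holds cells before DNA replication, had levels of 10.13 and 10.24, against 8.93, 8.86 and 9.03 at 11.5 dpc. It rose by 1.24 ± 0.23 (adjusted p = 0.000725), with 0.60 on alignment (adjusted p = 0.0424) and no call without 12.5 dpc replicate 2. Rb1 was the 1 call in a list of 17 measured cyclin-dependent kinase inhibitors, G1 cyclins and genes of the retinoblastoma and E2F families. None of the inhibitors or cyclins passed.

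Among chromatin genes, Uhrf1, which directs maintenance DNA methylation, rose by 0.93 ± 0.24 (adjusted p = 0.0351), the 1 call of 15 DNA methylation genes. Of 24 histone modification genes 2 were higher. Kdm5b, a histone H3 demethylase, rose by 0.84 ± 0.21 (adjusted p = 0.0207). Scml2, an X-linked Polycomb protein of the germline, had levels of 10.28 and 10.20 at 12.5 dpc, against 8.70, 8.89 and 8.10 at 11.5 dpc, and rose by 1.68 ± 0.25 (adjusted p = 3.13e-05). The call of Scml2 held without each array in turn, while those of Uhrf1 and Kdm5b were lost without either 12.5 dpc array and without 11.5 dpc replicate 3, and that of Uhrf1 also without replicate 2.

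Cdh2, the cell adhesion molecule N-cadherin, was higher by 0.77 ± 0.21 (adjusted p = 0.0478), the 1 call of 20 adhesion and niche genes, and this call was lost without any 1 of the 5 arrays. The genes of germ cell identity gave 2 calls of 18 (Mael and Tdrd1, median 0.02), those of primordial germ cell specification and migration 1 of 15 (Tdrd7, median -0.01), and RNA-binding regulators 1 of 19 (Meioc, median 0.23). Each of these lists had 6 genes at an unadjusted p under 0.05, against 11.6% of all genes. In 25 imprinted genes 0 passed (3 at an unadjusted p under 0.05), and Plagl1 passed with the row sets aligned (1.17, adjusted p = 0.0117). In 17 glycolysis, 15 cholesterol synthesis and 15 Notch pathway genes 0 passed (1, 1 and 3 at an unadjusted p under 0.05), and 3, 1 and 1 were lower on alignment.

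On the X chromosome 13 of 739 genes were higher and 0 lower (1.76% higher, against 0.40 to 1.69% on the 19 autosomes), with a median difference of 0.10, against 0.03 to 0.09 on the autosomes. With the row sets aligned 22 were higher and 4 lower (2.98% higher, against 0.41 to 1.69%). The aligned median was -0.0039, against -0.040 to -0.012 on the autosomes. The 13 genes included Taf7l, Scml2, Tex11, Tex13b and Usp26, which are expressed in the germline, and Taf1, Zfp711 and Phka1. Of the 13 genes, Arxes1, Mtmr1, Taf1, Usp26 and Zfp711 lost their calls on alignment. Xist, the noncoding RNA of X inactivation, was at 6.595 and 8.28 at 12.5 dpc, against 6.72, 7.68 and 6.73 at 11.5 dpc, and its groups overlapped. In the list of 8 X inactivation and escape genes, which holds Xist, 0 passed (3 at an unadjusted p under 0.05, against 11.6% of all genes).

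Outside the lists, the largest gains included genes with a known place in the germline and genes without one. Ccdc172, a coiled-coil protein gene, had levels of 8.95 and 7.92, against 6.54, 6.83 and 5.95 at 11.5 dpc, a difference of 1.997 ± 0.29 (adjusted p = 2.85e-05). Fbxo47, an F-box protein needed for stable synapsis, had levels of 8.07 and 8.13, against 6.49, 6.38 and 5.96 at 11.5 dpc, a difference of 1.82 ± 0.31 (adjusted p = 0.000386). Cubn, the endocytic receptor cubilin, had levels of 7.59 and 7.86, against 5.47, 6.21 and 5.65 at 11.5 dpc, a difference of 1.95 ± 0.23 (adjusted p = 2.09e-07).

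In the deposited values these 3 held without each array in turn, as did Rnf130 (1.92 ± 0.23), Shtn1, a neuronal actin regulator (1.96 ± 0.28), Lonrf2 (1.75 ± 0.25) and the transporter Slc35f5 (1.69 ± 0.25). With the row sets aligned, Fbxo47 and Shtn1 lost their calls without 12.5 dpc replicate 2. Adgrl2, an adhesion receptor, and Zhx1, a zinc finger protein, rose by 1.85 ± 0.30 and 1.79 ± 0.30 and lost their calls without 12.5 dpc replicate 2, in which both were higher than in replicate 1. Adgrl2, Rnf130, Slc35f5 and Zhx1 were higher still in XX supporting cells of 12.5 dpc, at means of 11.9, 11.5, 9.37 and 9.17, and on the array left out, at 11.51, 10.83, 9.52 and 9.29.

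Among losses after Tdgf1, Capsl, a calcium-binding protein gene, had levels of 5.98 and 5.02, against 8.16, 7.88 and 6.76 at 11.5 dpc, a difference of -2.10 ± 0.35 (adjusted p = 0.000229). H2bc4, a replication-dependent histone H2B gene, was at 7.20 and 5.32, against 8.77, 8.50 and 7.87 at 11.5 dpc, a difference of -2.12 ± 0.37 (adjusted p = 0.000457). Pdha2, a testis form of a pyruvate dehydrogenase subunit, was at 5.18 and 4.82, against 6.22, 7.02 and 6.40 at 11.5 dpc, a difference of -1.55 ± 0.30 (adjusted p = 0.00135). Histone genes of this cluster are close copies, so probes may not separate H2bc4 from its relatives.

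The other 11 of the 15 largest losses ran from -1.23 to -1.47. They were Gng3 (a G protein subunit), Rab18 (a small GTPase), Stard3nl (an endosomal membrane protein), Capg (an actin-capping protein), Gtsf1l (a relative of the piRNA factor Gtsf1), Kcnrg, the retroviral restriction gene Fv1, the zinc finger genes Zfp980 and Zfp773, and the small nucleolar RNAs Snord42b and Snord52. Fv1 and Zfp773 lost their calls on alignment. Of the 15 losses, Tdgf1 alone kept its call in all fits without 1 array: without 12.5 dpc replicate 2 all the others but Gng3 and Stard3nl lost it, and those 2 lost it without replicate 1.

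**Figure D3:**
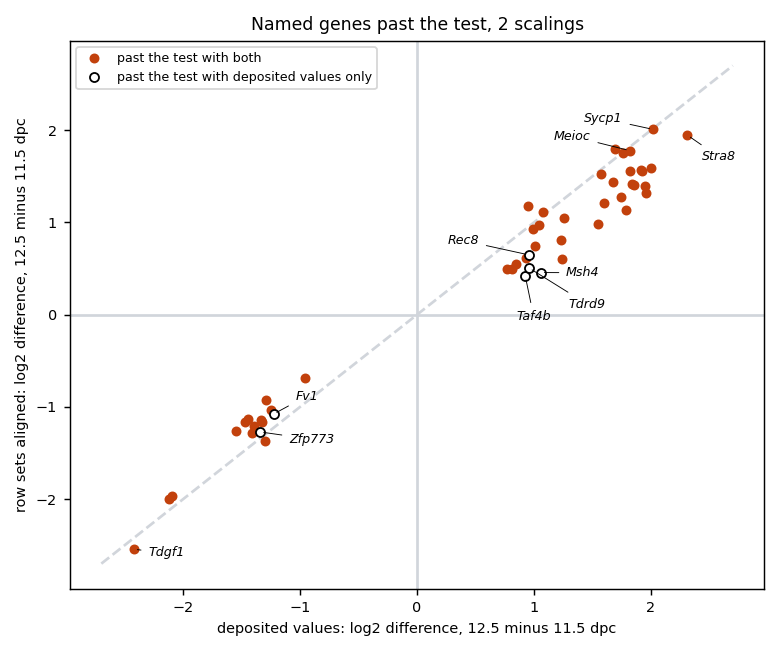
Log2 difference (12.5 minus 11.5 dpc) of the 51 named genes past the test, from the deposited values (x) and with the row sets aligned (y), with equality as a dashed line. All keep their sign, 46 are smaller in size on alignment, and 6 (open points) lose their call.

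Several features moved with these calls. The 189 higher genes had a median span in the genome of 65.6 kb and the 40 lower genes of 8.72 kb, against 17.7 kb over all genes, and with the row sets aligned the medians were 74.3 kb and 13.2 kb. Their promoter windows held a median of 25 and 8 CpG, against 15 over all genes, and 26 and 19 with the row sets aligned, so the lower genes then lay above all genes. The E2F core was in 40.9% of 154 higher and 18.5% of 27 lower promoters, against 27.7% of all 15614. The E-box was in 12.3% and 3.70%, against 8.38%. The STRA8 motif was in 10.4% and 3.70%, against 8.71%, and the retinoid core in 10.4% and 29.6%, against 13.9%. In the 149 promoters of genes lower with the row sets aligned, the E2F core was in 34.9% and the E-box in 11.4%. Both lay above the share of all genes. The STRA8 motif was in 4.03% of these promoters and the retinoid core in 17.4%. Of the 14 meiosis genes that passed, 10 had a promoter in the table, 5 with an E2F core and 4 with an E-box. In XY germ cells, the 146 genes that rose between the same stages had a median span of 46.7 kb and a median of 23 CpG. Of their 121 promoters, 38.8% held the E2F core, 15.7% the E-box, 14.9% the STRA8 motif and 13.2% the retinoid core. A longer span, more CpG and a higher E2F core share than all genes were thus seen among higher genes of both sexes, with 37 genes in both sets. The E-box and STRA8 motif shares of the XX higher genes, 12.3% and 10.4%, lay nearer those of all genes. In the 90 promoters of genes lower in XY cells, the E2F core was in 30.0%, also above all genes, and the E-box in 5.56%. The part of gene span in the calls was not tested.

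In the lists of markers of other cells, supporting (21 measured), stromal (14), endothelial (12), macrophage (12), erythroid (8) and epithelial cells (12), 0 genes passed, with 2, 2, 2, 0, 0 and 4 at an unadjusted p under 0.05, against 11.6% of all genes. The median of 3 measured erythroid markers was 7.61 to 7.88 at 12.5 dpc, against 7.45 to 8.49 at 11.5 dpc, above the median level of all genes, 6.90. Over all 8 measured genes of the erythroid list the median lay below that level, at 6.55 to 6.69, against 6.35 to 6.79 at 11.5 dpc. The summed log2 level of the 6 supporting markers was 39.9 to 44.1 at 12.5 dpc, against 40.2 to 42.1 at 11.5 dpc, and that of the 6 stromal markers 40.3 to 43.6, against 39.9 to 41.1. The higher sums at 12.5 dpc belonged to replicate 2: with the row sets aligned its stromal median was 7.25 and its supporting median 7.05, against 6.64 and 6.69 in replicate 1. Of the 189 higher genes, 27 (14.3%) stood over 1 unit higher in XX supporting cells than in XX germ cells at 12.5 dpc, against 5.78% of all genes, and 74 (39.2%) over 1 unit lower, against 8.14%. The 189 genes were chosen by high values on these same 12.5 dpc germ cell arrays. That choice lowers the share of 14.3% and raises that of 39.2%. In the stress list, which tracks dissociation, 0 of 15 genes passed (2 at an unadjusted p under 0.05) and the median was -0.25. The part of such cells in the result was not tested, and in sorted pools fewer cells of a type and less RNA per cell cannot be told apart.

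XY germ cells were compared at the same stages, on 3 arrays each, to ask which changes were shared by the sexes. They share no array with the XX comparison. In XY germ cells 262 genes passed (1.31%), 146 higher and 116 lower at 12.5 dpc. Of the 189 genes higher in XX cells, 148 had a positive difference in XY cells, where 55.1% of all genes did, and 37 passed there too. Their median was 1.07 in XX cells and 0.31 in XY cells. Of the 40 lower genes, 33 had a negative XY difference (44.9% of all genes), with medians of -1.14 in XX cells and -0.31 in XY cells, and 12 passed in XY cells, among them Capsl, H2bc4, Gtsf1l, Capg, Gng3, Stard3nl and Morc1. None passed in the opposite direction. Both sets of genes were chosen by their XX difference, which enlarges the XX medians and not the XY medians. The medians therefore do not compare the size of the changes between the sexes.

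Some axis, synapsis and recombination genes passed in both sexes. Beside gains of 2.02, 1.58, 0.99 and 1.84 in XX cells, Sycp1 rose by 1.58 in XY cells (adjusted p = 2.48e-05), Sycp2 by 1.88 (adjusted p = 4.1e-07), Tex11 by 1.78 (adjusted p = 3.03e-07) and Dmc1 by 1.24 (adjusted p = 0.0103). In none of these 4 genes did the change differ between the sexes past the threshold (adjusted p = 0.784, 0.857, 0.47 and 0.736). Of 26 methylation-sensitive genes 9 were higher and 0 lower in XX cells (median 0.72), and 11 were higher and 1 lower in XY cells (median 0.78). The change differed between the sexes past the threshold for 0 of them. Over all genes it did so for 0.145%, so this count does not set the list apart.

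The change itself differed between XX and XY germ cells for 29 genes (0.145%), and 22 of these also passed with the row sets aligned. The gain of Stra8, 2.31 in XX cells and 0.31 in XY cells, was larger in XX cells by 1.997 ± 0.32 (adjusted p = 0.000286). Tdgf1 had -2.42 in XX cells and -0.44 in XY cells, a difference of -1.98 ± 0.38 between them (adjusted p = 0.00549). Cubn had 1.95 in XX cells and -0.03 in XY cells, which differed by 1.98 ± 0.31 (adjusted p = 0.000246).

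B2m, the light chain of class I histocompatibility molecules, had levels of 7.10 and 8.51 in XX cells at 12.5 dpc, against 6.05, 6.65 and 5.92 at 11.5 dpc. Its change differed from that of XY cells by 1.98 ± 0.40 (adjusted p = 0.0108), but not with the row sets aligned (adjusted p = 0.0781), and it stood at 11.4 in XX supporting cells and at 11.04 on the array left out. Its XX call was lost without 12.5 dpc replicate 2, the array in which it was higher. These 4 genes were among 9 that both changed in XX cells and changed differently in XY cells.

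For the other 6 of the 10 genes with the largest differences between the sexes, the change passed in XY cells and not in XX cells. Mgst2, a glutathione transferase, Etv1, an ETS factor, and Cst9, a cystatin, had -0.26, -0.89 and -0.30 in XX cells and rose by 2.89, 1.52 and 2.01 in XY cells. AU015836, Phlda2 (an imprinted growth regulator) and 1700013H16Rik had 0.91, -0.20 and 0.59 in XX cells and fell by 2.77, 2.45 and 1.70 on the log2 scale in XY cells. Meioc, Meiob, Rec8 and Taf7l had smaller differences in XY cells, 0.64, 0.32, -0.17 and 0.58, but the sexes did not differ past the threshold (adjusted p = 0.363, 0.153, 0.203 and 0.273).

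**Figure D4:**
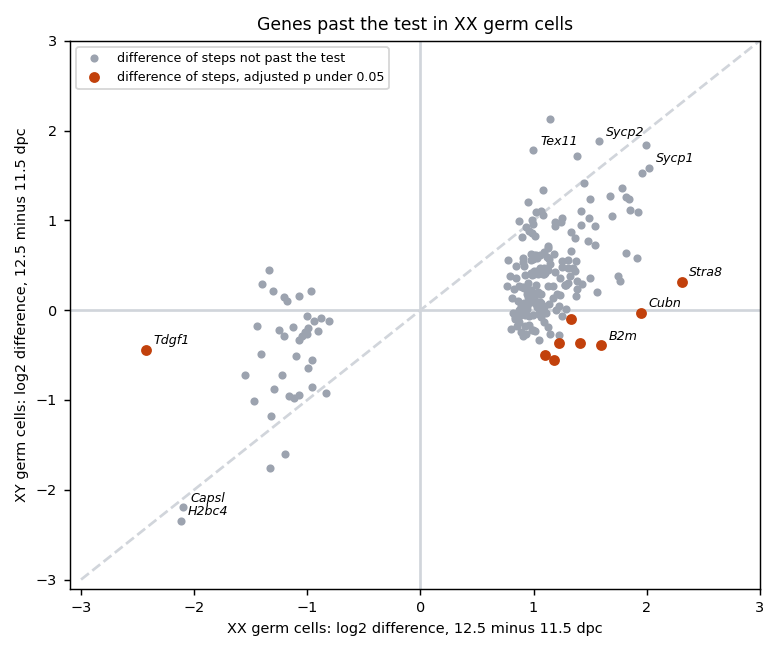
Log2 difference (12.5 minus 11.5 dpc) in XX germ cells (x) and XY germ cells (y) for the 229 genes past the test in XX cells, with equality as a dashed line. Filled orange points are the 9 genes whose change differed between the sexes, among them Stra8 at 2.31 in XX and 0.31 in XY and Tdgf1 at -2.42 and -0.44.

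The levels at the next stage are given for order, since a difference from 12.5 to 13.5 dpc would share the 12.5 dpc arrays. In XX germ cells Stra8 averaged 5.15 at 11.5 dpc, 7.46 at 12.5 dpc and 10.20 at 13.5 dpc. Meioc averaged 4.98, 6.80 and 9.73, Sycp1 6.63, 8.64 and 10.80, and Taf7l 6.33, 8.24 and 10.86 at the 3 stages. Dmc1 averaged 7.84, 9.68 and 10.88. Zglp1 averaged 6.34, 7.15 and 6.63, and Cubn 5.78, 7.73 and 6.86, and the means of these 2 were highest at 12.5 dpc. All of these genes had passed as higher at 12.5 dpc. That choice tends to enlarge the gain up to 12.5 dpc and to lessen the gain after it, so their sizes are not compared.

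**Figure D5:**
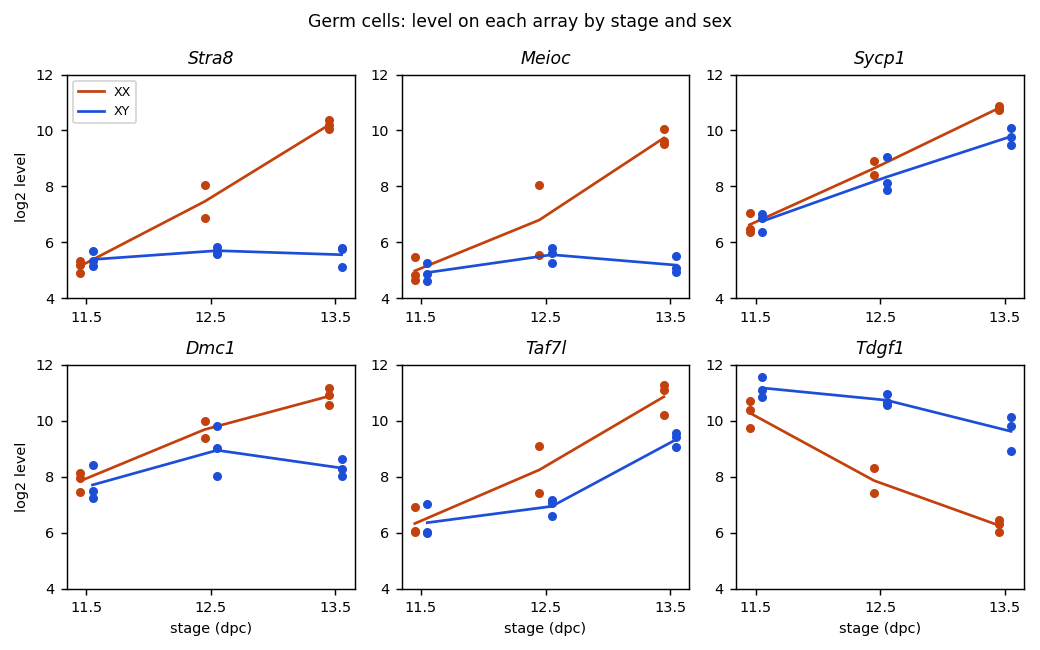
Log2 level on each germ cell array (points) and group mean (lines) of 6 genes over the 3 stages (11.5 to 13.5 dpc) in XX (orange) and XY (blue) cells, without the array left out. In XX cells at 13.5 dpc Stra8 averages 10.20 and Meioc 9.73, and Tdgf1 averages 6.26.

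Against XX supporting cells of the same stages, the change differed for 268 genes (1.34%), of which 69 had passed in XX germ cells and 175 passed in XX supporting cells. Stra8 differed by 2.33 and Tdgf1 by -2.46 (adjusted p = 5.61e-06 and 4.07e-05), and in supporting cells both lay within the range read by the Y-linked genes on the germ cell arrays, at means of 5.07 and 6.10 at 12.5 dpc. Of the 189 higher genes 43 and of the 40 lower genes 26 changed differently in supporting cells, where their median differences were 0.25 and 0.19, against 0.10 over all genes. Both sets were chosen by their XX germ cell difference, which is also part of this test. That choice raises the counts of 43 and 26, so they are not set against the share of all genes. Taf7l fell in supporting cells, at a mean of 8.49 at 12.5 dpc against 10.0 at 11.5 dpc, so the changes differed by 3.44 (adjusted p = 1.55e-06), and Capsl differed by -2.79 (adjusted p = 0.000138). The other 8 of the 10 largest differences (Egfl6, Robo1, 2210407C18Rik, Akr1c14, Pcdh20, Pde8b, Cntn4 and Tgm3) did not pass in XX germ cells.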

How the data were processed

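RNA of cells sorted by flow cytometry went onto Affymetrix murine Gene 1.0 ST arrays, per the labels' protocols. The authors deposited log2 expression per probe set. Per the submitters' processing notes, RMA was used, and no version is named. Of 23410 annotated probe sets, 21789 had 1 gene symbol and were used, with the probe set of the highest mean for each of 999 genes with several. This gave 19938 genes, of which 0 were filtered. Array medians lay between 6.54 and 7.01, and the number of arrays limits the precision.

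Genes were tested with limma 3.58.1 (R 4.3.3) in 1 model of 12 group means over 35 arrays with 23 residual degrees of freedom, moderated by empirical Bayes. P-values were two-sided and adjusted by the Benjamini-Hochberg method. On simulated data for the 12.5 minus 11.5 dpc comparison over 19938 genes, 0 of 50 genes changed by 0.5, 36 of 50 changed by 1 and 50 of 50 changed by 2 were called, with 9 false calls. Each array's rows fell into interleaved sets on their own linear scales (107 sets, slopes 1.0099 to 1.059), and an alternative divided out the slopes and moved all sets to a common median. The origin of the sets is unknown here. Tables and plots used Python 3.11.15, numpy 2.4.6, pandas 2.3.3 and matplotlib 3.10.9.

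The comparison, the array left out, the 32 gene lists and the motifs were chosen with earlier results of these data known. Named genes are the 15 largest gains and losses past the test with groups that do not overlap, every list member past the test, a fixed set of list members, and the 10 largest differences between changes. Others, such as further list members given as values, were chosen after their values were seen. Gm4969, the symbol used for the MEIOSIN gene, was not analysed here. Replicate numbers are shared between the stages, but no label ties them to a litter or day, so samples were not treated as pairs. Alternatives were leaving out each array, the array left out, the arrays fitted, the replicate block, centring, quantile normalisation, array weights, robust moderation, a filter on dim genes and the mean of probe sets.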

Additional observations from a re-analysis of the deposited data

Results flagged for a closer look

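The changes of 29 genes differed between XX and XY germ cells in a test of the difference itself, and those of 268 genes between XX germ and XX supporting cells. The XX change minus the XY change was 3.69 for AU015836, 2.29 for 1700013H16Rik, 2.24 for Phlda2, 1.997 for Stra8, 1.98 for B2m and 1.98 for Cubn. It was negative for Mgst2 (-3.14), Etv1 (-2.41), Cst9 (-2.31) and Tdgf1 (-1.98).

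The change of XX germ cells minus that of XX supporting cells was 3.44 for Taf7l, 3.28 for Robo1, 3.11 for 2210407C18Rik, 2.65 for Pcdh20, 2.58 for Tgm3 and 2.33 for Stra8. It was -3.89 for Egfl6, -2.79 for Capsl, -2.68 for Akr1c14, -2.601 for Pde8b, -2.59 for Cntn4 and -2.46 for Tdgf1. Egfl6, an X-linked secreted protein gene, was at 6.18 and 6.48 in XX germ cells at 12.5 dpc, against 6.64, 6.11 and 5.78 at 11.5 dpc, and had means of 10.4 at 12.5 dpc and 6.38 at 11.5 dpc in XX supporting cells.

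The array labelled XX germ cells 12.5 dpc replicate 3, which the comparison does not use, had a median level of 8.68 over 14 measured stromal and interstitial genes. On the other arrays of XX germ cells this median was 6.82 to 7.27 at 12.5 dpc and 6.95 to 7.09 at 11.5 dpc. Groups of 2 or 3 arrays are too small for a test of single outlying values.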

How the results depend on the processing

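For the 12.5 minus 11.5 dpc comparison, 229 genes passed. The count was 425 with the row sets aligned, 89 with array weights, 356 with the array left out put back and 1 in a fit to the 5 arrays alone. Leaving out each array in turn gave 53 to 231. The replicate block gave 208, and 47 of the 50 named genes that passed (B2m, named for its difference between the sexes, is not counted here) kept their call in it; Cdh2, Fv1 and Zglp1 did not. Centring, quantile normalisation, only germ cell arrays, robust moderation, a filter on dim genes and the mean of probe sets left the count within 1.5 times. Of the 50 named genes, 44 kept their call with the row sets aligned, 33 without 12.5 dpc replicate 1 and 19 without replicate 2.

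The count of changes that differed between XX and XY germ cells was 29. It was 14 with the array left out put back, 62 with only germ cell arrays, 86 with only the arrays compared, 53 after centring, 55 after quantile normalisation and 59 with the row sets aligned. Leaving out each array gave 20 to 173, the highest without XY 11.5 dpc replicate 2, and 78 without XX 12.5 dpc replicate 1. The count against supporting cells was 268, and became 156 with the array put back, 678 with the row sets aligned and 163 with array weights. It was 154 to 254 without each array in turn, and 172 without supporting XX 11.5 dpc replicate 2. The replicate block gave 33 and 270 for these counts.

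Further fits with the row sets aligned were chosen after seeing the data. For the 12.5 minus 11.5 dpc comparison they gave 418 with only germ cell arrays, 0 with only the 5 arrays in limma (2494 at an unadjusted p under 0.05), 736 with the array put back, 409 with the replicate block and 115 to 362 without each array. Against XY cells they gave 25 with only germ cell arrays, 28 with only the arrays compared, 37 with the array put back, 52 with the replicate block and 45 to 84 without each array (50, 62, 45, 84 and 48). Against supporting cells they gave 445 with only the arrays compared, 503 with the array put back, 672 with the replicate block and 406 to 630 without each array (557, 558, 630, 477 and 406). With the array put back, the differences of Mael (-0.42), Stk31 (-0.81) and Taf4b (-0.16) turned negative, and with the row sets aligned as well those of Mael (-0.63), Stk31 (-1.06), Taf4b (-0.49), Rb1 (-0.032) and Tuba3a (-0.12). That array held few germ cell transcripts, and the cause of the other shifts was not tested.

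The 2 arrays at 12.5 dpc limit what can be seen: in simulated data 0 of 50 genes changed by 0.5 were called. Levels near those of the Y-linked genes carry little signal over background.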

Other observations

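Small nucleolar RNAs, which guide the modification of ribosomal RNA and were chosen as a family after their values were seen, tended to lower values at 12.5 dpc. Of 31 measured Snord genes 24 had a negative difference, with a median of -0.27, and 26 with the row sets aligned, with a median of -0.23, against 0.06 and -0.02 over all genes. Snord42b had levels of 6.56 and 5.72 at 12.5 dpc, against 7.83, 7.50 and 7.29 at 11.5 dpc, and Snord52 of 6.66 and 5.70, against 7.16, 7.48 and 7.80. These 2 were the Snord genes past the test, and 12.5 dpc replicate 2 was the lower array for both. In XY germ cells the median of the family was 0.05. The 20 Snora genes had a median of -0.12, and -0.28 with the row sets aligned (18 negative), with 0 past the test in both.

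Other families gave few calls. Of 57 ribosomal protein genes 0 passed and the median was 0.07, which turned to -0.07 with the row sets aligned, where 47 were negative and 1 passed (Rpl10l). Of 77 mitochondrial ribosomal protein genes 0 passed, and 1 on alignment (Mrps34), with a median of -0.13 in both. Of 28 replication-dependent histone genes H2bc4 alone passed, with a family median of 0.04 that was -0.09 on alignment. Of 347 Zfp genes 4 were higher (1.15%, against 0.948% of all genes) and 3 lower (0.865%, against 0.201%).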
